A study of Mus musculus with 8 samples.

Results

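The 10 immediate early genes Fos, Fosb, Jun, Junb, Jund, Egr1, Egr2, Atf3, Ier2 and Nr4a1 were measured in bulk RNAseq libraries of pericytes and smooth muscle cells (SMCs) sorted from mouse hindlimb muscle. They were found by gene symbol, and all 10 were among the 37979 genes listed, each in 1 row. Each population gave 4 libraries, 8 in all. Both populations came from Ai14+/-;SM22α-Cre+ mice of both sexes, 3 to 4 months old, so that pericytes and SMCs share the genotype. In these mice the SM22α promoter drives Cre recombinase, and a cell in which it has been active carries red tdTomato fluorescence from then on. Pericytes were the PDGFRβ+tdTomato- cells and SMCs the PDGFRβ+tdTomato+ cells, after DAPI-high dead cells and cells stained for CD31 or CD45 had been left out. Before the sort, minced muscle was digested with 0.2% collagenase for 2 h and then in 3 rounds of 15 min with trypsin, all at 37 °C. Each library held about 60000 cells combined from several sorts, of 18 mice in the study. Values are FPKM, fragment numbers divided by transcript length and by the mapped reads of the library. They allow for differences of length between genes, but not for other differences, such as reads shared by overlapping genes.

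Immediate early genes are transcribed within minutes of a stimulus, from factors that are already present in the cell and without new protein synthesis. Growth factor and stress kinases act on serum response factor with its ternary complex partners, which bind the CArG box, and on CREB, which binds the cAMP response element (CRE). Fos and Jun proteins pair into the dimer AP-1, Atf3 is a related bZIP repressor, Egr1 and Egr2 are zinc finger factors, and Nr4a1 is an orphan nuclear receptor. Their transcripts are short-lived, and enzymatic dissociation and sorting of tissue are known to induce them. Every library here went through the same digestion and sort, and undigested muscle was not analysed here, so the part of these levels that arose during dissociation was not tested.

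Promoter windows, which run from 250 bases before to 50 bases after a transcript's start, came from RefSeq (GRCm38.p6) and matched 8 of the 10 genes by symbol. Egr1 and Ier2 had no window in the set used here. The 6 windows below are those of genes in which the core of a CRE, TGACG or CGTCA on the other strand, was found. They are shown because they hold a gene of each outcome described further on. Fos, Fosb and Atf3 were higher in SMCs, Junb was higher in pericytes, and Nr4a1 and Egr2 did not pass the test. Capitals mark the CRE core and, in Egr2, also a CArG box. All are written 5′ to 3′ on the strand of the gene.
Fos: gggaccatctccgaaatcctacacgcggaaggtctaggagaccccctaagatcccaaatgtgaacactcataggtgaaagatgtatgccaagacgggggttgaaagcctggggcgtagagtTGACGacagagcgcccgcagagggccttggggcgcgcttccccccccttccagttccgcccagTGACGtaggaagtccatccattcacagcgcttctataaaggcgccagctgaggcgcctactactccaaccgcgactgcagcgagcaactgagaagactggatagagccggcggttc
Fosb: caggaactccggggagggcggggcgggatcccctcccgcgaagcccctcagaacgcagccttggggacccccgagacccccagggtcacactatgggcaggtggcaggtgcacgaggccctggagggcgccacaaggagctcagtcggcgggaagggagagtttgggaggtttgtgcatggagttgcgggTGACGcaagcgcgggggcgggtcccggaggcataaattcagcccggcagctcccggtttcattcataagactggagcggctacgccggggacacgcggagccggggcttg
Atf3: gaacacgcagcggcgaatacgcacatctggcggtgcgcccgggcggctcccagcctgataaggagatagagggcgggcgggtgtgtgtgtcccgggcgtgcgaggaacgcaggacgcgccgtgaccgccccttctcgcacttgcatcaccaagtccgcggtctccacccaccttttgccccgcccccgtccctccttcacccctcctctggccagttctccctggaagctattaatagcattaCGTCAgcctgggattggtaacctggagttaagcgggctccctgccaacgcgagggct
Junb: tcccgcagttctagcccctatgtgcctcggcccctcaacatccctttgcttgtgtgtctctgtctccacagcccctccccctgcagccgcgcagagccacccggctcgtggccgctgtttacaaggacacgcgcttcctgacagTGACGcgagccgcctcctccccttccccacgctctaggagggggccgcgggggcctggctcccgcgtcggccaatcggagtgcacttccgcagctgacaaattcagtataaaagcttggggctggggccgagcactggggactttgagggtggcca
Nr4a1: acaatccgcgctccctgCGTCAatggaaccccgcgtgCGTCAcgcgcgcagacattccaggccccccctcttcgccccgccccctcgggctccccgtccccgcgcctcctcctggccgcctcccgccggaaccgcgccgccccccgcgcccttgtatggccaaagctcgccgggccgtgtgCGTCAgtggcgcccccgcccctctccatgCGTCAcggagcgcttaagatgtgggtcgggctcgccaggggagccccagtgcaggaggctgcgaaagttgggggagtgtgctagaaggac
Egr2: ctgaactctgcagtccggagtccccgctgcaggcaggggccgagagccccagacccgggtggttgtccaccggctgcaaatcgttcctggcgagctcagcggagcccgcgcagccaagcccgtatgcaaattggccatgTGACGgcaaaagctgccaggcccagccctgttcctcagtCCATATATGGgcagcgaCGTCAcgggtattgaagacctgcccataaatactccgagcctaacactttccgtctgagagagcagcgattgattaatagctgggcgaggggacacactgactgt

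In GRCm38.p6, the window of Fos is chr12:85473640-85473939 on the plus strand, that of Fosb chr7:19309996-19310295 on the minus strand and that of Atf3 chr1:191183284-191183583 on the minus strand. The window of Junb is chr8:84978699-84978998 on the minus strand, that of Nr4a1 chr15:101266596-101266895 on the plus strand and that of Egr2, 1 of its 5 windows, chr10:67537619-67537918 on the plus strand. Counted from the transcript's start, the CRE core began at -129 and -66 in Fos, at -60 in Fosb, at -7 in Atf3 and at -106 in Junb. Nr4a1 held 4 matches, at -233, -213, -69 and -40, and the printed window of Egr2 held matches at -111 and -55 on either side of a CArG box at -72. At least 1 CRE core stood in 20.8% of the 32851 windows of all genes, at least 2 in 5.01% and at least 4 in 0.231%. These shares are per window, and they were not matched for base content. The core contains the bases CG, and the printed windows had from 58.7% (Fos) to 72.3% (Nr4a1) G or C, against a median of 52.7% over all windows. The full CRE, TGACGTCA, which contains the core, was found in none of the windows of these genes and in 1.79% of all windows. The AP-1 site TGACTCA, searched on both strands like the others, was likewise in none of them and in 5.20% of all windows. A CArG box was found in Egr2 only, and such a box stood in 1.63% of all windows. It was in 4 of the 5 windows of Egr2, 3 of which overlap and hold the same site, so that there were 2 distinct sites. The windows of Jun and Jund held no match to any of the 4 motifs. These are matches of letters within 300-base windows, and binding was not measured.

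Across the 10 genes, 5 were higher in SMCs (Fos, Fosb, Jun, Egr1 and Atf3), 1 was higher in pericytes (Junb), and 4 did not pass the test (Jund, Egr2, Ier2 and Nr4a1). The test was limma on log2(FPKM + 1) over 27414 genes with a Benjamini-Hochberg adjusted p (q value) below 0.05. By the same test, 11.2% of all genes were higher in SMCs and 10.6% were higher in pericytes. Over the 13349 genes that reached 1 FPKM in at least 4 libraries, which include all 10, these shares were 22.8% and 22.1%, and again 5 of the 10 genes were higher in SMCs and 1 in pericytes. The count of 5 was 3 without pericyte replicate 1, 2 without SMC replicate 3 and 2 without SMC replicate 4. The median log2 difference, pericytes minus SMCs, was -0.84 over the 10 genes and 0.02 over all genes tested. Every SMC library lay above every pericyte library for 6 of the 10 genes, a pattern seen in 12.5% of all genes. The opposite separation was found for 1 of them, Junb, and for 12.1% of all genes. The study's own threshold adds a log2 difference above 2, which 2.66% of all genes passed with higher values in SMCs and 3.24% with higher values in pericytes. None of the 10 genes reached that size with the FPKM as deposited and all libraries. Under TPM scaling, Jun (-2.10, q = 0.0332) and Atf3 (-2.05, q = 0.00345) passed it, and Jun also did without pericyte replicate 4, SMC replicate 1 or SMC replicate 2, with log2 differences from -2.12 to -2.05. In bulk libraries, fewer cells of a type and less RNA per cell cannot be told apart.

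**Figure D1:**
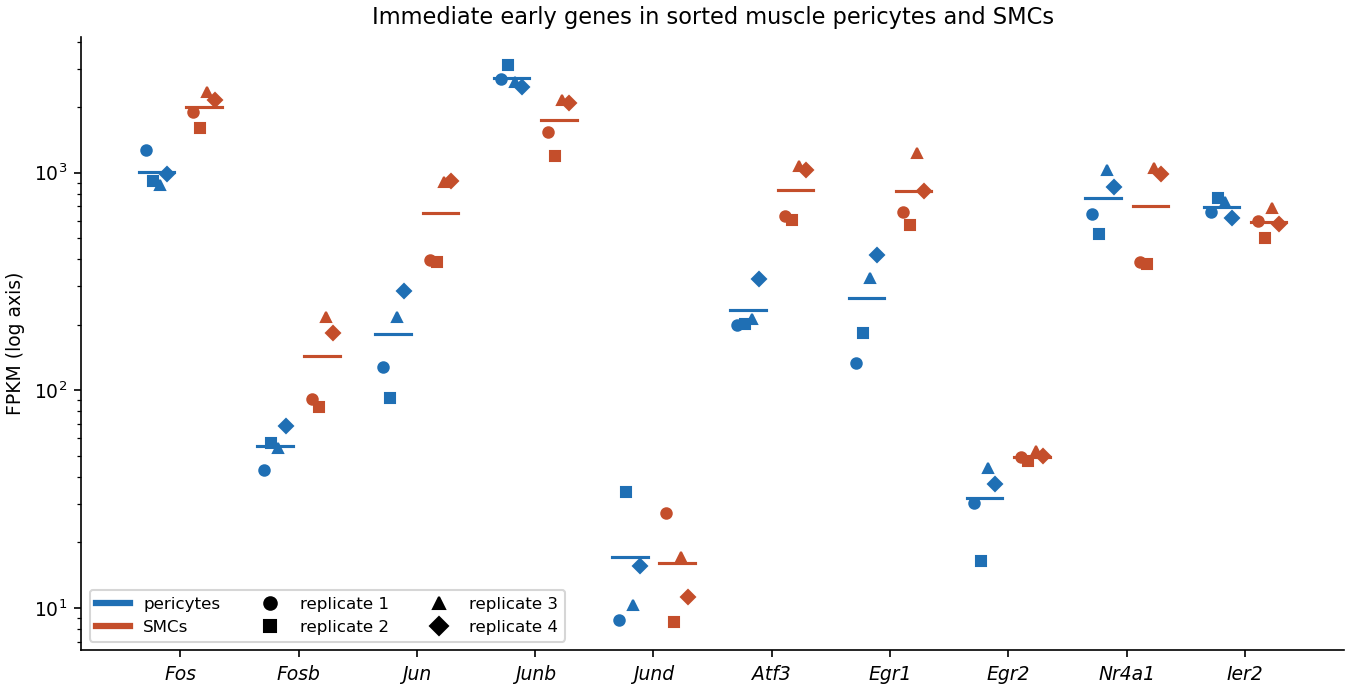
FPKM (log axis) of the 10 immediate early genes in each of the 8 libraries, pericytes in blue and SMCs in orange, with a symbol for each replicate number and a bar at the group mean. The groups are fully apart for Fos, Fosb, Jun, Egr1, Egr2 and Atf3, with SMCs above, and for Junb, with pericytes above.

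**Figure D2:**
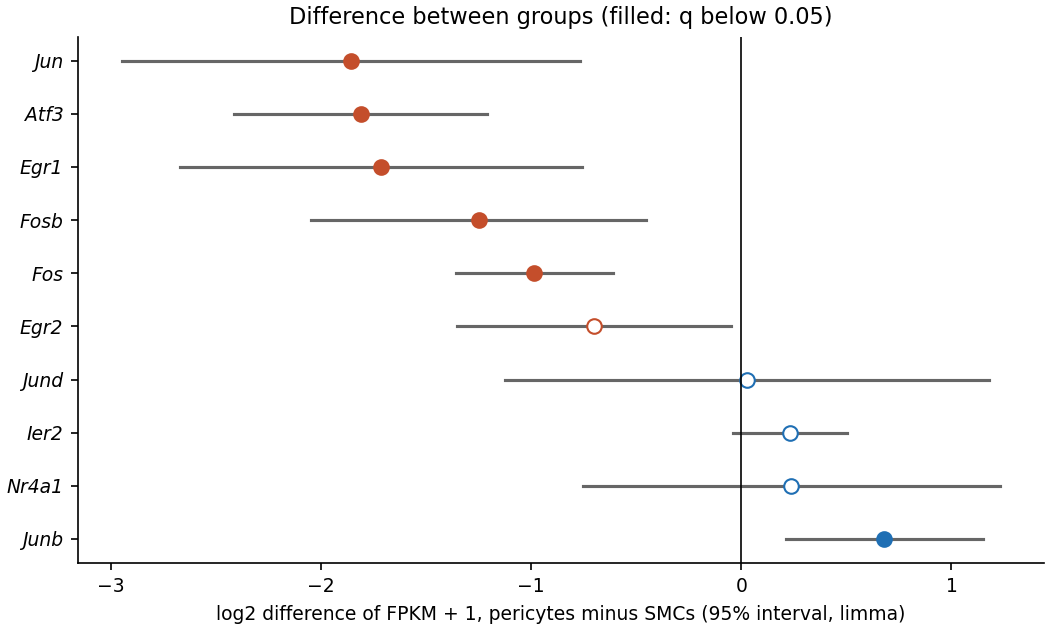
Difference in log2(FPKM + 1), pericytes minus SMCs, for each gene with its 95% interval by limma, filled where the q value is below 0.05. The values run from -1.86 in Jun to 0.68 in Junb, and the intervals of Jund, Ier2 and Nr4a1 span 0.

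Fos and Fosb were both higher in SMCs, and Fos was the more abundant. Fos (ENSMUSG00000021250, NCBIM37 chr12:86814840-86818223, plus strand) encodes the Fos protein of AP-1. Its FPKM was 1263, 918, 876 and 979.7 in pericyte replicates 1 to 4 and 1905, 1599, 2337 and 2144 in SMC replicates 1 to 4. The lowest SMC library was thus above the highest pericyte library, and Fos ranked between 21 and 38 of all genes by FPKM in SMC libraries and between 69 and 234 in pericyte libraries. The means were 1009 ± 175 and 1996 ± 318 FPKM in pericytes and SMCs (SD, n = 4 each). The log2 difference was -0.98 (SE 0.16, 95% interval -1.36 to -0.61), a fold of 1.98 on the FPKM + 1 scale, with a limma q of 0.00430. Fos kept its call in every alternative run, with q values up to 0.0225. Its promoter window, printed above, holds a pair of CRE cores, the nearer one at -66.

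Fosb (ENSMUSG00000003545, NCBIM37 chr7:19888070-19895394, minus strand), a close relative of Fos, was expressed at a much lower level. Its FPKM was 43.0, 57.0, 54.0 and 68.5 in pericytes and 91.1, 84.0, 216 and 182 in SMCs. The groups did not overlap, and SMC replicates 3 and 4 stood far above SMC replicates 1 and 2. The means were 55.6 ± 10.5 and 143 ± 65.9 FPKM (SD, n = 4 each), and the log2 difference was -1.25 (SE 0.34, limma q = 0.0372). This call was lost when any 1 pericyte library, SMC replicate 3 or SMC replicate 4 was left out, with q values up to 0.0919 and no change of direction.

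The Jun genes went in different directions. Jun (ENSMUSG00000052684, NCBIM37 chr4:94715725-94718913, minus strand), the main partner of Fos in AP-1, had 128, 91.9, 217 and 284 FPKM in pericytes and 396, 386, 909 and 917 FPKM in SMCs. All SMC libraries were above all pericyte libraries, although the spread within each group was wide. Means were 180.3 ± 87.0 FPKM in pericytes and 652 ± 301 FPKM in SMCs (SD, n = 4 each). The log2 difference was -1.86 (SE 0.46, 95% interval -2.95 to -0.77, limma q = 0.0271), a fold of 3.62 and close to that of Atf3. The call was lost without pericyte replicate 1, SMC replicate 3 or SMC replicate 4, with q values up to 0.0714. The gene BC042782 lies on the opposite strand and shares 232 exonic bases with Jun. Its FPKM rose and fell with that of Jun, from 6.74 in pericyte replicate 2 to 74.4 in SMC replicate 4. Whether reads were counted by strand is not given in the sources used here, so reads from Jun and BC042782 in these bases cannot be told apart.

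Junb (ENSMUSG00000052837, NCBIM37 chr8:87500811-87502617, minus strand), a Jun family member that activates more weakly than Jun and can oppose it, had the highest FPKM of the 10 genes in every pericyte library. Its FPKM was 2692, 3133, 2620.3 and 2472 in pericytes and 1540.3, 1195, 2148 and 2096 in SMCs. Here the groups were apart in the other direction, with the lowest pericyte library above the highest SMC library. Group means were 2729 ± 284 and 1745 ± 458 FPKM (SD, n = 4 each), with a log2 difference of 0.68 (SE 0.20, 95% interval 0.21 to 1.15, limma q = 0.0494), a fold of 1.60. The call is close to the threshold. It was lost with a pseudocount of 0.1 (q = 0.105), with a block for the replicate number (q = 0.123) and with an intensity trend (q = 0.149). It was also lost with TPM scaling (q = 0.220) and with quantile normalization (q = 0.574), and the groups overlapped under both of these scalings. The call was lost as well without any 1 pericyte library, SMC replicate 1 or SMC replicate 2. Its direction stayed the same in all of these, with log2 differences of 0.44 under TPM and 0.25 under quantile normalization.

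Jund (ENSMUSG00000071076, NCBIM37 chr8:73221638-73224515, plus strand), which is held to be expressed more steadily than its relatives, was the lowest of the 10 genes by group mean in both populations. It had 8.78, 34.2, 10.3 and 15.5 FPKM in pericytes and 27.2, 8.58, 17.0 and 11.3 FPKM in SMCs. The libraries of the groups were fully mixed, with a log2 difference of 0.03 (SE 0.49, 95% interval -1.12 to 1.18, limma q = 0.982) whose sign turned to -0.21 under TPM and -0.10 under quantile normalization. Gm11175, a gene on the opposite strand, shares 543 exonic bases with Jund. Gm11175 was highest in pericyte replicate 2 at 52.1 FPKM and next in SMC replicate 1 at 43.6 FPKM, the same libraries that were highest for Jund, and the reads of these genes cannot be told apart either.

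Ratios between genes of 1 library do not change when the library is multiplied by a factor, as TPM and median-ratio scaling do. The ratio of Fos to Junb was 0.469, 0.293, 0.334 and 0.396 in pericytes and 1.24, 1.34, 1.09 and 1.02 in SMCs. Fos was thus below Junb in every pericyte library and above it in every SMC library. The ratio of Junb to Jun was 21.0, 34.1, 12.1 and 8.69 in pericytes and 3.89, 3.09, 2.36 and 2.29 in SMCs. It was higher in every pericyte library than in any SMC library. The log2 ratio of Atf3 to Junb ran from -3.96 to -2.92 in pericytes and from -1.28 to -0.98 in SMCs, again without overlap. These ratios combine genes whose differences are given above and were not tested again.

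Atf3 (ENSMUSG00000026628, NCBIM37 chr1:192994175-193007219, minus strand), a stress-induced bZIP factor that represses many of the genes AP-1 activates, had the lowest q value of the 10 genes. Its FPKM was 199, 201, 211 and 326 in pericytes and 633, 607, 1077 and 1024 in SMCs. The groups were far apart, with pericyte replicate 4 standing above the other pericyte libraries. The means were 234 ± 61.0 FPKM in pericytes and 835 ± 249.6 FPKM in SMCs (SD, n = 4 each). The log2 difference was -1.81 (SE 0.26, 95% interval -2.41 to -1.21, limma q = 0.00245), a fold of 3.51, and the call held in every alternative run with q values up to 0.00953. In rank by FPKM, Atf3 lay between 73 and 201 in SMC libraries and between 413 and 873 in pericyte libraries. The window printed above has its CRE core at -7.

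The zinc finger genes were both higher in every SMC library, but only Egr1 passed the test. Egr1 (ENSMUSG00000038418), a factor that binds GC-rich sites and responds to serum, injury and flow in vessel walls, had 133, 183, 326 and 416 FPKM in pericytes and 661, 577, 1230.1 and 824 FPKM in SMCs. Its groups did not overlap, and pericyte values differed by 3.13 times from lowest to highest. Means were 264 ± 130.3 and 823 ± 290.1 FPKM (SD, n = 4 each), with a log2 difference of -1.71 (SE 0.41, 95% interval -2.67 to -0.76, limma q = 0.0224), a fold of 3.28. Without SMC replicate 3 or without SMC replicate 4 the call was lost, with q values up to 0.0567. An overlapping gene, Gm17507, shares 8 exonic bases with Egr1 and was not among the genes tested.

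Egr2 (ENSMUSG00000037868, NCBIM37 chr10:66998223-67004936, plus strand), best known from myelinating Schwann cells and lymphocytes, had 30.4, 16.4, 44.0 and 36.998 FPKM in pericytes and 49.3, 47.0, 52.3 and 49.7 FPKM in SMCs. The SMC libraries lay within 1.11 times of each other and all above the pericyte libraries, which spread 2.69 times. The means were 31.9 ± 11.8 and 49.6 ± 2.16 FPKM (SD, n = 4 each). The log2 difference of -0.70 (SE 0.28, 95% interval -1.35 to -0.05) did not pass with a limma q of 0.129. A two-sided exact permutation test over the libraries gave its smallest possible p of 0.0286, as it does for any gene whose groups do not overlap. Without pericyte replicate 2, which has the lowest value, the difference was -0.42 with a q of 0.0590.

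Nr4a1 and Ier2 were abundant in both populations and overlapped between them. Nr4a1 (ENSMUSG00000023034, NCBIM37 chr15:101097277-101105223, plus strand), known as Nur77 and induced by antigen receptor and growth factor signals, had 645, 524, 1024 and 859 FPKM in pericytes and 388, 378, 1053 and 989.7 FPKM in SMCs. SMC libraries fell to both ends of the range, with replicates 3 and 4 at 2.55 times or more the level of replicates 1 and 2. All pericyte libraries were above SMC replicates 1 and 2, and pericyte replicate 3 was also above SMC replicate 4. The log2 difference was 0.24 (SE 0.42, 95% interval -0.75 to 1.23, limma q = 0.762). Its sign turned under TPM and under quantile normalization, where the value was close to 0.

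Ier2 (ENSMUSG00000053560, NCBIM37 chr8:87185230-87186751, minus strand), a single-exon immediate early gene that encodes a small nuclear protein, had 656, 763, 731 and 615 FPKM in pericytes and 597, 499.7, 686 and 577 FPKM in SMCs. It varied least of the 10 genes in pericytes, 1.24 times from lowest to highest, and the groups overlapped. The log2 difference was 0.23 (SE 0.12, 95% interval -0.04 to 0.50, limma q = 0.230), and it was -0.01 under TPM and -0.02 under quantile normalization. The interval leaves room for a level up to 0.50 log2 units higher in pericytes.

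In order of group mean FPKM, pericytes had Junb, Fos, Nr4a1, Ier2, Egr1, Atf3, Jun, Fosb, Egr2 and Jund. The ranges of neighbours in that order were apart for Junb over Fos, Ier2 over Egr1 and Jun over Fosb, and the ranges of the other neighbours overlapped. SMCs had Fos, Junb, Atf3, Egr1, Nr4a1, Jun, Ier2, Fosb, Egr2 and Jund. There, the ranges were apart for Junb over Atf3, Ier2 over Fosb, Fosb over Egr2 and Egr2 over Jund, while those of Fos and Junb overlapped. Together, the 10 genes held 0.840%, 0.497%, 0.851% and 0.777% of the summed FPKM of pericyte replicates 1 to 4 and 0.852%, 0.820%, 1.39% and 1.26% of that of SMC replicates 1 to 4. The low share of pericyte replicate 2 goes with its summed FPKM of 1190435, against 656405 to 782014 in the other libraries. The sum over the 10 genes itself differed little within pericytes, from 5798 to 6114 FPKM.

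Libraries of the same group did not hold these transcripts at the same level. The mean log2(FPKM + 1) over the 10 genes was 7.58, 7.69, 7.93 and 8.09 in pericyte replicates 1 to 4 and 8.36, 8.07, 8.96 and 8.76 in SMC replicates 1 to 4. SMC replicates 3 and 4 were thus the highest of all libraries, and SMC replicate 2 was slightly below pericyte replicate 4. In SMCs, replicates 3 and 4 were both above replicates 1 and 2 for 8 of the 10 genes, all but Jund and Ier2, a pattern seen in 31.5% of 13162 expressed genes. In pericytes it was seen for Jun, Egr1, Egr2, Atf3 and Nr4a1, against 24.8% of genes. Junb had the reverse pattern in pericytes, as did 27.4% of genes. The step in SMCs, taken as the lower of replicates 3 and 4 over the higher of replicates 1 and 2, was 2.55 for Nr4a1, 2.30 for Jun, 2.00 for Fosb and 1.62 for Atf3, but 1.01 for Egr2. SDs within groups were set against the median over all 3050 genes with a mean log2 value of at least 5, without closer matching by level. In SMCs the SD was above that median (0.26 log2 units) for 6 of the 9 immediate early genes that reached this mean. In pericytes it was above the median there (0.46) for 3 of 9.

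**Figure D3:**
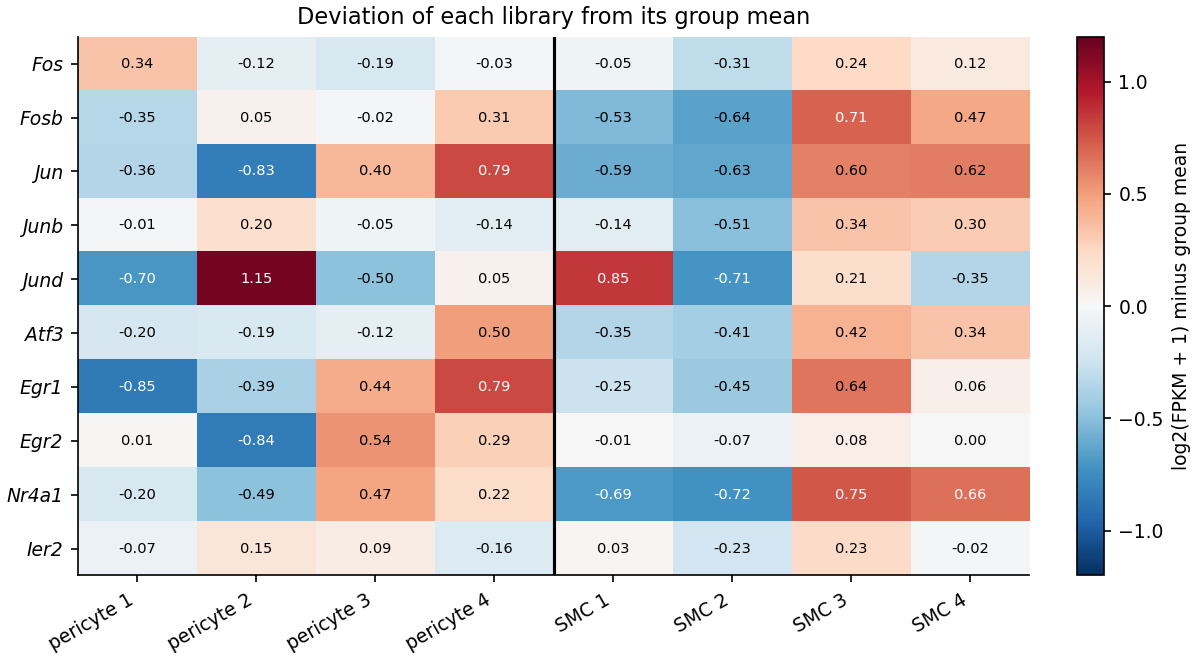
Deviation of each library from its group mean in log2(FPKM + 1), for the 10 genes (rows) and 8 libraries (columns), red above and blue below the mean. Nr4a1, Jun, Fosb and Atf3 are high together in SMC replicates 3 and 4, and Jund stands out in pericyte replicate 2 and SMC replicate 1.

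The replicates also differed in markers of cell types. In SMCs, the sum over 7 endothelial markers was 412, 574, 883 and 1125 FPKM in replicates 1 to 4, and that over 5 smooth muscle markers was 1715, 1989, 3315 and 5514 FPKM. The sum over 6 pericyte markers was 62.6, 74.5, 194 and 276 FPKM. Muscle fibre sums were 25.4, 21.7, 34.9 and 32.9 FPKM. All of these sums were higher in replicates 3 and 4 than in replicates 1 and 2, as most immediate early genes were. The fibroblast markers were split, since Col1a1 and Col1a2 were higher in replicates 3 and 4, Lum and Dpt were lower and Pdgfra was mixed. Among 7 myeloid markers, the neutrophil genes S100a8 and S100a9 were lower in replicates 3 and 4, with S100a8 at 1312, 1642, 712 and 126 FPKM. Csf1r, Cd68 and Itgam were higher there, with Csf1r at 12.6, 13.5, 36.99 and 68.3 FPKM, and Lyz2 and Cd14 were mixed. Sums over B cell markers (29.6, 30.1, 8.84 and 11.7 FPKM) and erythroid markers (245, 423, 115 and 68.5 FPKM) were lower in SMC replicates 3 and 4. In pericyte replicates 1 to 4, B cell sums were 1300.0, 1966, 859 and 761 FPKM, lower in replicates 3 and 4 as well, while pericyte marker sums were higher there, at 26.2, 29.1, 53.7 and 82.8 FPKM. Their part in the levels of the immediate early genes was not tested.

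Between the groups, the same markers did not follow the labels throughout. All 5 T cell markers and all 5 B cell markers were higher in the libraries labelled pericytes, with sums of 1436 to 2310 and 761 to 1966 FPKM against 18.6 to 32.2 and 8.84 to 30.1 FPKM in SMCs. Ptprc, which encodes the CD45 used to leave cells out, had 80.6 to 230.3 FPKM in pericytes and 4.34 to 11.9 FPKM in SMCs. All 5 fibroblast markers and 5 of 7 endothelial markers were higher in SMCs, with sums of 3257 to 4486 and 412 to 1125 FPKM against 226 to 477 and 90.8 to 160.2 FPKM. The endothelial marker Pecam1 encodes CD31, which was also used to leave cells out. It had 25.0 to 59.7 FPKM in pericytes and 102 to 301 FPKM in SMCs. The sums over 6 pericyte markers were 26.2 to 82.8 FPKM in pericytes and 62.6 to 276 FPKM in SMCs, and Rgs5 among them was higher in SMCs. Pdgfrb, which encodes the PDGFRβ that both populations were sorted on, had 3.21 to 17.6 FPKM in pericytes and 15.6 to 91.5 FPKM in SMCs (limma q = 0.0973). Sums over smooth muscle markers were 569 to 1856 FPKM in pericytes and 1715 to 5514 FPKM in SMCs. Tagln among them, which encodes SM22α, had 165 to 551 FPKM in pericytes and 500 to 1569 FPKM in SMCs (limma q = 0.110). Myeloid sums overlapped, at 1609 to 5185 and 1885 to 3897 FPKM, as did those of muscle fibre (26.3 to 31.6 and 21.7 to 34.9 FPKM) and erythroid markers (66.5 to 1913 and 68.5 to 423 FPKM). None of the markers was at 0 in a whole group. The groups compared above are therefore those of the labels, and the part of lymphocyte, fibroblast or endothelial RNA in the differences of Fos, Fosb, Jun, Junb, Egr1 and Atf3 was not tested.

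**Figure D4:**
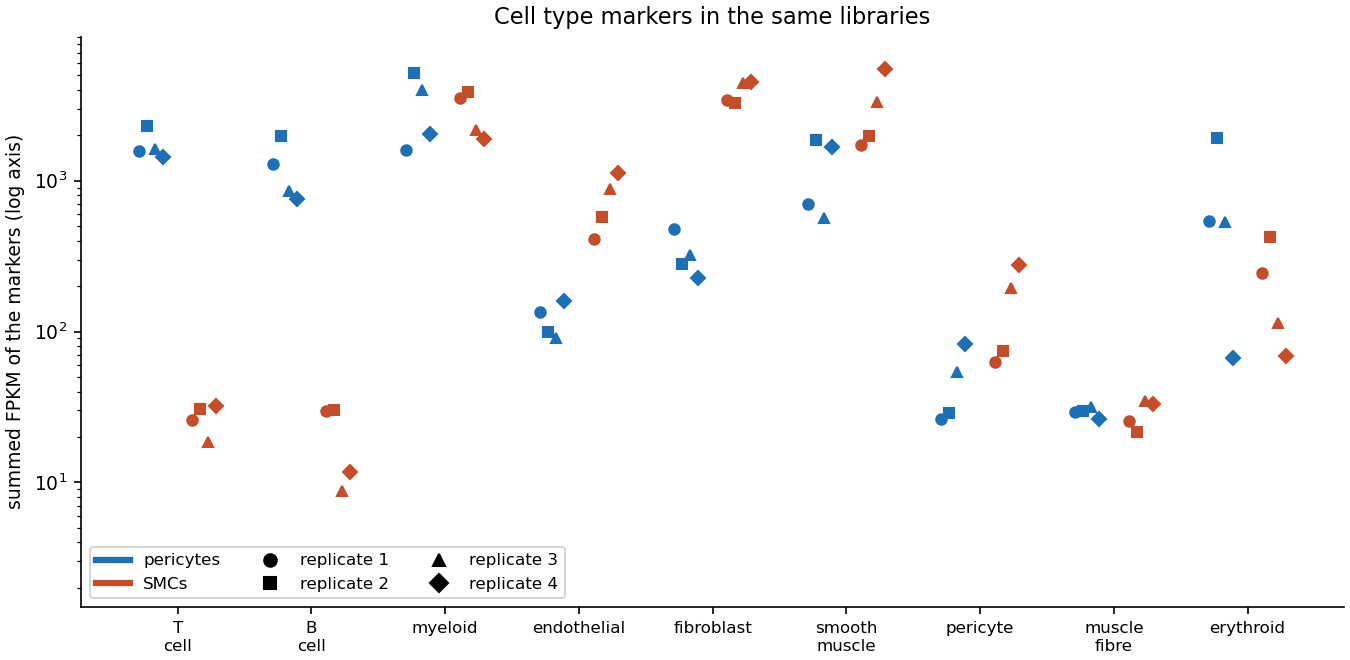
Summed FPKM (log axis) of the markers of each cell type in the 8 libraries, with the colours and symbols of the plot of the 10 genes. T cell and B cell sums are at least 761 FPKM in all pericyte libraries and at most 32.2 FPKM in all SMC libraries, while fibroblast and endothelial sums are higher in SMCs.

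Further genes of the same response were taken from 6 lists, and the counts below can be read against the 11.2% of all genes higher in SMCs and the 10.6% higher in pericytes. These shares were 22.8% and 22.1% with the filter at 1 FPKM and 13.6% and 7.72% with TPM scaling. The lists were run with these settings and the replicate block only. Among 13 other bZIP genes that can pair with Fos or Jun proteins or compete with them, Batf was higher in pericytes and Batf2 in SMCs, and the median log2 difference was -0.39. The number higher in SMCs was 3 with the filter at 1 FPKM and 4 under TPM scaling. Batf, a partner of Junb in lymphocytes, had 45.9, 103, 55.8 and 56.7 FPKM in pericytes and 9.34, 9.61, 11.3 and 12.9 FPKM in SMCs (log2 difference 2.43, SE 0.25, limma q = 0.000564). It thus shared the direction of Junb, with a larger difference. Batf2 was near 1 FPKM, at 0 to 0.776 FPKM in pericytes and 1.41 to 3.80 FPKM in SMCs (log2 difference -1.32, limma q = 0.00987).

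Of 12 other induced transcription factors, 4 were higher in SMCs and 1 in pericytes, with a median log2 difference of -0.19. The 4 were Hes1, a Notch target (-1.24, q = 0.0314), Bhlhe40, a repressor of the circadian clock (-1.23, q = 0.0472), and the Krüppel-like factors Klf4 (-0.99, q = 0.0382) and Klf10 (-0.97, q = 0.00135), all by limma. Hes1 did not pass with the replicate block (limma q = 0.0619). Nr4a3, a close relative of Nr4a1, was higher in pericytes. Its FPKM was 22.6, 31.4, 64.97 and 85.5 in pericytes and 6.92, 8.63, 17.2 and 18.9 in SMCs (log2 difference 1.82, SE 0.50, limma q = 0.0388), so that the groups were apart where those of Nr4a1 overlapped. Under TPM scaling, Nr4a3 did not pass, and the number higher in SMCs was 3.

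Among 20 genes of negative feedback, 4 were higher in pericytes and 5 in SMCs, and the median log2 difference was -0.52. In SMCs these included Ier3 (-2.22, q = 0.000409), the kinase gene Sgk1 (-1.29, q = 0.0155), Zfp36, whose product binds AU-rich transcripts and promotes their decay (-1.14, q = 0.00907), and the ERK phosphatase gene Dusp6 (-1.10, q = 0.0215). Zfp36 was at 362, 327, 354 and 357 FPKM in pericytes and 636, 548, 1084 and 944 FPKM in SMCs, with replicates 3 and 4 highest as for Jun. In pericytes, the phosphatase genes Dusp2 (2.88, q = 0.00483) and Dusp5 (2.72, q = 0.00580), the NF-κB inhibitor gene Tnfaip3 (2.35, q = 0.0129) and the clock gene Per1 (1.12, q = 0.00479) were higher. All are limma values of pericytes minus SMCs, and phosphatase genes of this family thus lay on both sides. The number higher in SMCs was 8 with the filter at 1 FPKM and 8 with TPM scaling. The libraries in which Batf, Nr4a3, Dusp2, Dusp5 and Tnfaip3 were higher are those with T cell sums of 1436 to 2310 FPKM, against 18.6 to 32.2 FPKM in SMCs, and the part of lymphocyte RNA in these differences and in that of Crem below was not tested.

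Secreted factors of the response were the most one-sided of the 6 lists. Of its 10 genes, 8 were higher in SMCs, and the median log2 difference was -2.44. Ctgf, a matrix-bound growth factor and target of the YAP pathway, had 61.3, 34.2, 13.4 and 18.3 FPKM in pericytes and 411, 302, 218 and 204 FPKM in SMCs (log2 difference -3.29, SE 0.48, limma q = 0.00276). The chemokine gene Ccl2 had 45.4 to 76.8 FPKM in pericytes and 344 to 493 FPKM in SMCs (-2.92, limma q = 7.55e-05). The difference was -2.87 for the cytokine gene Il6 (limma q = 0.00321) and -2.75 for the chemokine gene Cxcl1 (limma q = 0.000482). Each of these genes had a larger difference than any of the 10 immediate early genes. Areg, a ligand of the EGF receptor, had the opposite sign (1.69, limma q = 0.0614) and passed with the filter at 1 FPKM but not with TPM scaling. Ptgs2, which is on the list although it encodes an enzyme that is not secreted, did not pass (-1.36, limma q = 0.101). Fibroblasts express several of these factors, and all 5 fibroblast markers were higher in the same libraries, with sums of 3257 to 4486 FPKM against 226 to 477 FPKM. Their part in these differences was not tested.

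Of 15 kinases and factors upstream of the immediate early genes, 2 were higher in SMCs and 3 in pericytes, with a median log2 difference of 0.33. Crem, which encodes activators and repressors that bind the CRE, had 919.8, 1607, 1388 and 1442 FPKM in pericytes and 174, 203, 252 and 356 FPKM in SMCs (log2 difference 2.46, SE 0.26, limma q = 0.000700). Every pericyte library was far above every SMC library. Creb1 (0.65, limma q = 0.0336) and Elk4, a partner of serum response factor (0.65, limma q = 0.0339), were also higher in pericytes, and Elk3, of the same family (-1.18, limma q = 0.0317), and the ERK1 gene Mapk3 (-1.12, limma q = 0.0200) were higher in SMCs. With the replicate block, Creb1 (limma q = 0.109) and Elk4 (limma q = 0.107) did not pass. The number higher in pericytes was 5 with the filter and 1 under TPM scaling. Srf itself was between 1.22 and 4.09 FPKM in all libraries, with a log2 difference of -0.04 (limma q = 0.939).

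Heat shock proteins were looked at as a second set of genes induced by stress. Of 9, only Hspb1, a small heat shock protein abundant in muscle cells, passed, with 23.9 to 108 FPKM in pericytes and 242 to 468 FPKM in SMCs (log2 difference -2.52, SE 0.50, limma q = 0.0106). The inducible Hspa1a had 15.5 to 56.3 FPKM in pericytes and 28.6 to 91.0 FPKM in SMCs (limma q = 0.636), and Hspa1b had 20.3 to 82.5 and 33.5 to 87.3 FPKM (limma q = 0.970). Both overlapped between the groups. Within SMCs the list was split, with Hspa1a, Hspa1b and Hspb1 higher in replicates 3 and 4 than in replicates 1 and 2 and Hsp90aa1, Hspe1, Hspd1 and Hsph1 lower. The median log2 difference over the 9 genes was 0.14. With the filter, 2 of them were called higher in pericytes.

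**Figure D5:**
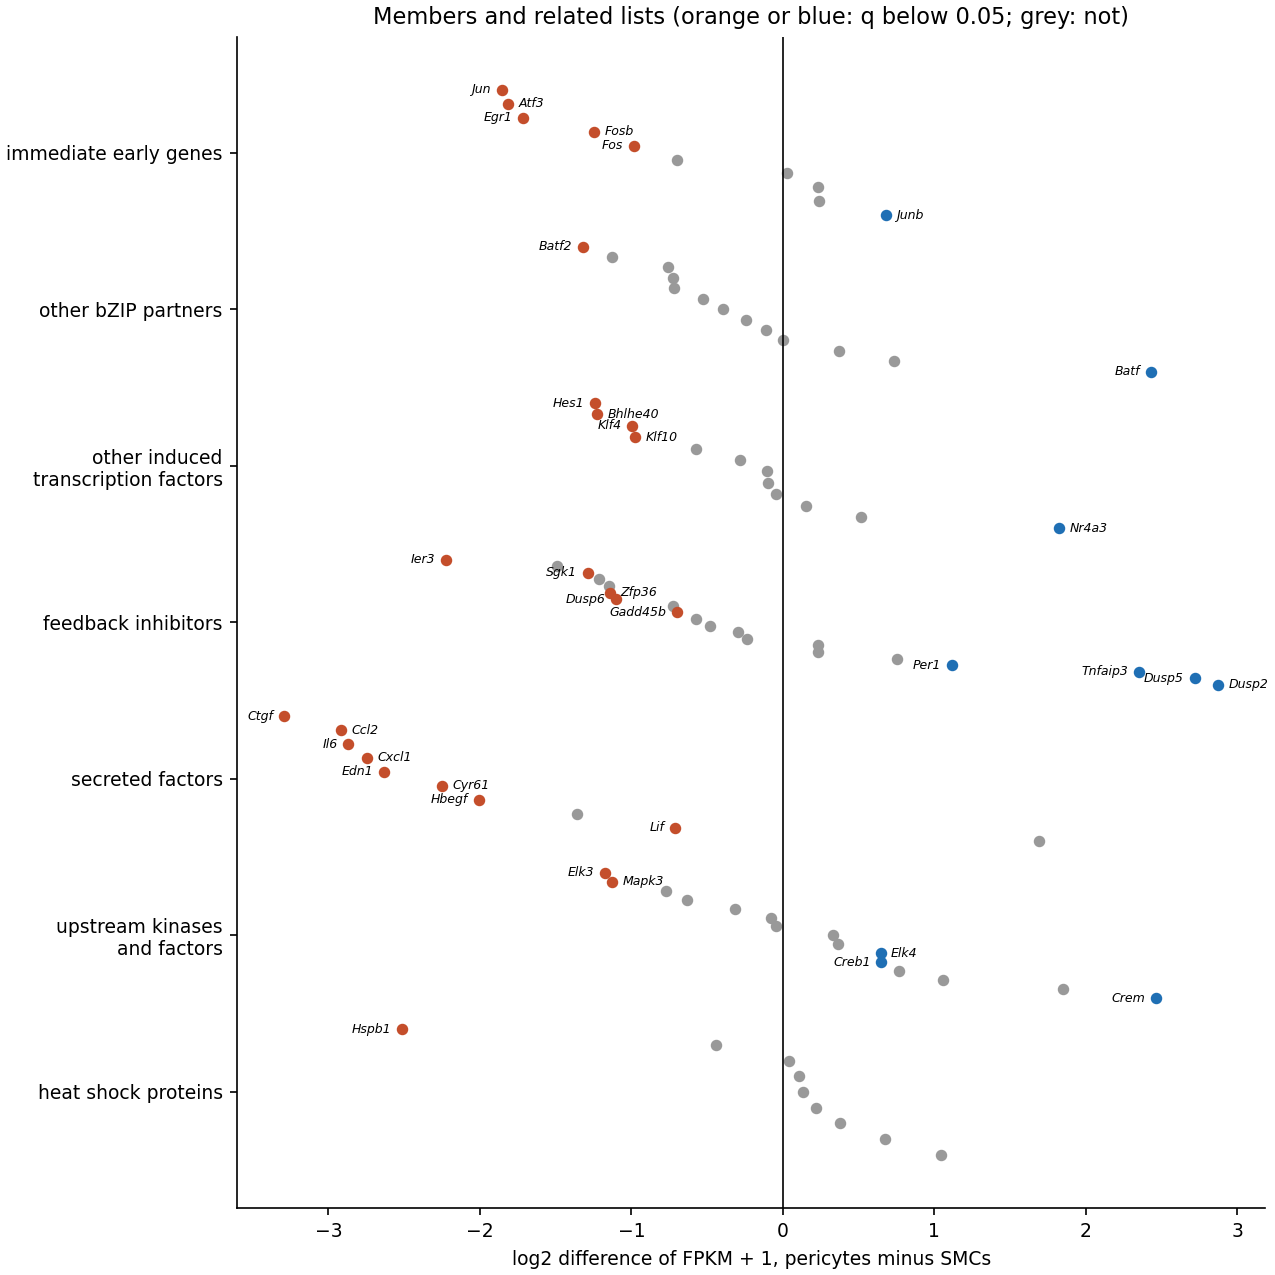
Difference in log2(FPKM + 1), pericytes minus SMCs, of each gene in the 10 immediate early genes and 6 related lists, with genes that passed the test named and coloured by the group in which they were higher. Secreted factors lie furthest to the left, with a median of -2.44, and every list has genes on both sides.

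The 10 genes are short. Their median span was 3.58 kb, from 1.52 kb in Ier2 to 13.0 kb in Atf3, against 17.4 kb over 20468 protein-coding genes tested, and Junb and Ier2 have 1 exon. In the longest annotated 3′ untranslated region, 9 of the 10 genes, all but Ier2, held the AU-rich pentamer ATTTA, as did 66.8% of 17717 genes. The density was 5.56 per kb in Nr4a1, 4.91 in Fos, 4.14 in Junb and 3.24 in Jun, and 8 of the 10 genes were above the median of 1.19 over all genes. Density did not separate the genes higher in SMCs from the others, since Fosb had 0.47 and Egr1 1.64 while Nr4a1 and Junb were among the highest.

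The genes most like the mean profile of the 10 across the 8 libraries were 9530068E07Rik, Mprip, Fam3a, Rnf141 and Flot1. Likeness was the root mean square difference of centred log2(FPKM + 1), which was 0.12, 0.13, 0.13, 0.14 and 0.15 for these genes and had a median of 0.73 over 7563 genes. The 10 genes themselves were less like their own mean, from 0.30 for Fos to 0.78 for Jund, so the mean profile describes Fos and Fosb (0.34) better than Jund or Junb (0.73). Mprip, for example, had 11.8 to 15.1 FPKM in pericytes and 17.95, 15.2, 35.0 and 28.3 FPKM in SMC replicates 1 to 4, with the same step to replicates 3 and 4.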

How the data were processed

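RNA of sorted pericytes (4 libraries) and SMCs (4 libraries) was amplified with the SMART-Seq v4 kit, and libraries were made by Nextera XT. Alignment to NCBI Build 37 was done with Bowtie2 and TopHat, and the authors deposited FPKM for each gene. The program that computed FPKM and the use of strand are not given in the sources used here. FPKM are not counts, so the depth is unknown and no counting error is given. Steps between low values put the deepest library at 1.24 times the shallowest. Positions came from GENCODE M1 (NCBIM37), which holds 37195 of the 37979 gene identifiers. Each printed promoter window matched that build exactly once.

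Values were taken here as log2(FPKM + 1) of the deposited FPKM, a scale that understates the fold of low genes, and 27414 genes above 0 in at least 1 library were tested with limma 3.58.1 (lmFit, eBayes; R 4.3.3), with all 8 libraries and no covariate. The 10565 genes at 0 in all libraries were left out. Where 2 identifiers share a symbol, the one with the higher mean was used. The test was checked on simulated data. Permutation tests and figures used Python 3.11.15 with matplotlib 3.10.9, pandas 2.3.3, numpy 2.4.6 and scipy 1.17.1.

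Groups and replicate numbers came from the sample titles, and all samples carry the same batch label. The study gives 4 biological replicates, with several sorts pooled in each sample. The labels do not say that libraries came from separate animals, so p-values measure the spread between these libraries. All 10 genes are named, and of each related list up to 4 genes in each direction with the largest difference among those that passed. Named too are the 5 genes most like the mean profile, among genes with a mean log2 value of at least 3. Areg, Ptgs2, Srf, Hspa1a, Hspa1b, Hsp90aa1, Hspe1, Hspd1, Hsph1, S100a8, S100a9, Csf1r, Cd68, Itgam, Lyz2, Cd14, Pdgfrb, Tagln, Pecam1 and Ptprc were described after their values were seen. The 10 genes, the lists and the tests were chosen with earlier results of these data known. Alternatives tried were leaving out genes below 1 FPKM in more than 4 libraries, a pseudocount of 0.1, TPM, median-ratio and quantile scaling, an intensity trend, the replicate block, an exact permutation test and each library left out in turn.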

Additional observations from a re-analysis of the deposited data

Results flagged for a closer look

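Of 24 groups of values examined, 1 had a library far from the others. Atf3 in pericytes had 326 FPKM in replicate 4 against 199 to 211 FPKM in the other libraries. On the log2 scale the gap to the nearest library was 0.883 of the group's whole range, above Dixon's 95% critical value for 4 samples. A flag of this kind arises by chance in about 5% of groups. Without pericyte replicate 4, Atf3 was still called higher in SMCs.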

How the results depend on the processing

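Fos and Atf3 kept their call under all alternatives run. The number of genes higher in SMCs was 5 in each setting that kept all libraries and 2 to 5 with 1 library left out. The number higher in pericytes, 1 (Junb), was 0 with a pseudocount of 0.1, 0 with TPM scaling, 0 with quantile normalization, 0 with the intensity trend and 0 to 1 with 1 library left out. TPM scaling moved the median log2 difference of 13349 expressed genes by -0.21 and the share of calls higher in pericytes from 48.8% to 36.2%. The median over the 10 genes stayed between -1.08 and -0.68, and groups did not overlap for 6 to 8 genes. Signs turned in 3 genes that were not called. Jund was at -0.21 under TPM, -0.10 under quantile normalization and -0.36 to 0.31 with 1 library left out. Ier2 was at -0.0076 and -0.016 under the same scalings, and Nr4a1 at -0.0011 and -0.0054, and at -0.0026 to 0.49 with 1 library left out.

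Of the lists, bZIP partners higher in SMCs numbered 3 with the filter and 4 with TPM, against 1. Other transcription factors higher in pericytes numbered 0 with TPM. Genes of the list with feedback and other induced genes that were higher in SMCs numbered 8 with the filter and 8 with TPM. Secreted factors higher in pericytes numbered 1 with the filter, and upstream genes higher in pericytes 5 with the filter and 1 with TPM. Heat shock genes higher in pericytes numbered 2 with the filter, 1 with TPM and 1 with the replicate block. The mean level of the 10 genes became 8.10 in pericytes and 9.05 in SMCs with TPM, and their median was 9.35 in SMCs. The cause of these changes was not tested.

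Deviations of same-numbered libraries from their group means had correlations across 13612 genes of 0.0794 to 0.474, and 2 of 4 pericyte libraries correlated best with their own number, so the numbers were not taken as pairs. Replicates 1 and 2 correlated positively with replicates 1 and 2 of the other group (0.0794 to 0.538), and 3 and 4 with 3 and 4 (0.209 to 0.474). Correlations of 1 or 2 with 3 or 4 were all negative (-0.451 to -0.102). The main fit did not model this division. With the replicate block, 5 genes were higher in SMCs and 0 in pericytes (Junb, q = 0.123). Of the other genes named, Hes1 (q = 0.0619), Creb1 (q = 0.109) and Elk4 (q = 0.107) also did not pass with it. Depth is unknown, so no limit of detection can be given for genes listed at 0.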
